A study of Homo sapiens with 12 samples.

Results

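The genes described here drive and restrain the first gap phase (G1) of the cell cycle. They are the 3 D-type cyclins (CCND1, CCND2, CCND3), the 2 E-type cyclins (CCNE1, CCNE2), the cyclin-dependent kinases CDK2, CDK4 and CDK6, and the inhibitors CDKN1B (p27) and CDKN2C (p18). They were taken by gene symbol from a list of 10 names, which was chosen with earlier results of these data known. All 10 were found among 60649 genes in the count tables, and 9 of them were among the 16683 genes abundant enough to be tested. CCND2 was the gene that was not tested.

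RNA was sequenced from SBC3, an established human small cell lung cancer line, grown as spheroids. The treatment labels divide 12 libraries into 4 groups of 3: control, teriflunomide alone, lurbinectedin alone, and the combination of both drugs. Teriflunomide inhibits DHODH, an enzyme of pyrimidine synthesis, and lurbinectedin binds DNA and interferes with transcription. The labels used here give no dose, exposure time or vehicle, and do not say whether the libraries of a group came from separate cultures, so the p-values measure the spread between libraries, which may be technical. All libraries come from 1 cell line, and the labels name no other genotype or cell type.

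In G1, D-type cyclins bind CDK4 or CDK6, and E-type cyclins bind CDK2. The active complexes phosphorylate the retinoblastoma protein RB1 and its relatives, which releases E2F transcription factors and lets the genes of DNA replication be transcribed. CDKN2C and its INK4 relatives bind CDK4 and CDK6 alone, whereas CDKN1B and the related CDKN1A (p21) bind cyclin-kinase complexes, most strongly those of CDK2. Small cell lung cancer is known for frequent loss of RB1 function, which makes the state of these genes of interest in such a line.

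Total counts ranged from 23206414 to 33222162 per library. Pearson correlations of log expression between replicates were 0.995 in the control group, 0.992 to 0.993 with lurbinectedin, 0.986 to 0.990 with the combination and 0.977 to 0.995 with teriflunomide, where replicate 3 stood apart from the other two. The mitochondrial genome supplied 22.6% of the counts of teriflunomide replicate 3, against 8.42% and 8.43% in replicates 1 and 2, and 24.9% of those of combination replicate 2, against 14.6% and 13.1%. It supplied 6.26% to 7.17% in the control libraries and 13.8% to 17.0% with lurbinectedin. This share and most of the genes below were thus both higher with lurbinectedin than in control. Teriflunomide replicate 3 had a higher share than any lurbinectedin library, and its values for these genes are given below. The part of this share in the changes of these genes was not tested. The neuroendocrine markers INSM1, CHGA and NCAM1 were under 1 CPM in every library, where CPM is the count of a gene relative to the scaled size of its library. NEUROD1 and SYP were detected, and both moved with lurbinectedin: NEUROD1 fell from 4.03 ± 0.317 to 1.62 ± 0.110 CPM and SYP rose from 16.8 ± 0.765 to 30.9 ± 1.42 CPM. YAP1, the marker of a non-neuroendocrine subtype, fell from a mean of 246 to 64.9 CPM. All 4 leukocyte and all 3 endothelial markers were under 1 CPM throughout. Of the fibroblast markers, DCN and LUM were also under 1 CPM, whereas COL1A1 fell from 266 ± 6.60 to 107 ± 9.26 CPM and COL1A2 from 270.3 ± 9.45 to 99.9 ± 8.78 CPM. The summed fibroblast list ran from 519 to 549 CPM in control, 465 to 484 with teriflunomide, 186 to 220.2 in the lurbinectedin libraries and 198 to 227 in the combination libraries. Of the 4 epithelial markers, EPCAM, CDH1 and KRT18 were under 1 CPM in every library, and KRT8 rose from 243 ± 8.03 to 422 ± 19.0 CPM. The summed epithelial list ran from 236 to 252 CPM in control, 196 to 307 with teriflunomide, 400.1 to 433 in the lurbinectedin libraries and 373 to 444 in the combination libraries. All of these rises and falls passed the test described below (edgeR adjusted p of at most 0.000151). The part of these shifts in the results for the G1 genes was not tested.

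Upstream sequences from RefSeq (GRCh38.p14) were at hand for 6 of the 10 genes, as 11 windows from 250 bases before to 50 bases after an annotated start. CCND1, CCND2, CCNE2 and CDK2 had none. The windows were searched on both strands for 2 spellings of an E2F site (TTTCGCGC and TTTGGCGC), the CCAAT box (CCAAT), the GC box (GGGCGG), the E-box (CACGTG) and the AP-1 site (TGANTCA). No window held either E2F spelling or the AP-1 letters, which 0.515%, 0.652% and 7.71% of all 35116 RefSeq windows hold. The window of CDK4 held 3 E-boxes, a motif found at least once in 7.26% of all windows, and 3 GC boxes, found in 45.0%. The E-box also occurred once in the CDK6 window at chr7:92836524-92836823. It occurred once in each of the CDKN2C windows at chr1:50960495-50960794 and chr1:50969995-50970294. CCAAT, found in 34.6% of all windows, occurred 3 times at CDKN1B. A match in these letters is a description of the sequence and not a measured binding site.

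The 250 bases before 4 starts are shown, all read 5′ to 3′ on the minus strand, because these 3 genes carry the contrasts described below. CDK4 and CDK6 are the alternative kinase partners of the D-type cyclins and moved apart with lurbinectedin. CCND3 has starts both near to and far from its end. Capitals mark an E-box at CDK4 and a CCAAT box at the near start of CCND3. The stretches are chr12:57752311-57752560 for CDK4, chr7:92836574-92836823 for the outer start of CDK6, and chr6:41941809-41942058 and chr6:42048689-42048938 for the near and far starts of CCND3.
CDK4: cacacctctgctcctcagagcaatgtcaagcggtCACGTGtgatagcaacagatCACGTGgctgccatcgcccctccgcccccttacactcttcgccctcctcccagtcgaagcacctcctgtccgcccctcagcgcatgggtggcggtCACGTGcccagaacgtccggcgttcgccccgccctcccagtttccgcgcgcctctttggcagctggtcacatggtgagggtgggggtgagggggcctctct
CDK6: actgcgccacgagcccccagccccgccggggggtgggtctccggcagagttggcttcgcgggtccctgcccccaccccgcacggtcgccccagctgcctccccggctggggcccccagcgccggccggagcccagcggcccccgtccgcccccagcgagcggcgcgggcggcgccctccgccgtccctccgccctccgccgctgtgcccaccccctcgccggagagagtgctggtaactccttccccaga
CCND3 near start: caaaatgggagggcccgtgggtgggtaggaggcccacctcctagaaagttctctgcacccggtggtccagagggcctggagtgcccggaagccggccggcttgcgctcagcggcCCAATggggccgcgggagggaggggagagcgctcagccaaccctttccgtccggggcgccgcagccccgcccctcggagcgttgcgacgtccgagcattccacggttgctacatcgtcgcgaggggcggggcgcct
CCND3 far start: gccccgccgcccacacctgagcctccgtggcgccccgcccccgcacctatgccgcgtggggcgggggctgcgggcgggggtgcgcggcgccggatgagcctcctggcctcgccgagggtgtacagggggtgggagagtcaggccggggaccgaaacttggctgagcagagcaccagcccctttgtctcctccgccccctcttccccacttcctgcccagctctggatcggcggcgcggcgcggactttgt

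The 3 E-boxes of CDK4 are all in the stretch shown. The CDK6 stretch holds 3 GC boxes and none of the other motifs searched. At CCND3 the near stretch holds 1 CCAAT box and 2 GC boxes, and the far stretch holds 5 GC boxes and no CCAAT box. The near CCND3 start is 6.88 kb from the end of the gene, with another at 4.27 kb, and the far one is 114 kb from it. The counts are per gene, so which start was used was not measured.

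Levels can be set against each other between genes once counts are divided by exon length. In control spheroids the order by CPM per kb of exon was led by CDK4 (105 ± 2.30, SD, n = 3) and CCND1 (92.5 ± 3.53). CCNE1 (26.4 ± 0.551) and CDK2 (20.6 ± 0.354) came next. CCNE2 (9.82 ± 0.429), CCND3 (7.51 ± 0.170), CDKN1B (7.11 ± 0.521) and CDK6 (6.16 ± 0.128) lay close together, and CDKN2C (3.002 ± 0.184) was lowest of the tested genes. The control values of CCND3 and CDKN1B overlapped, and all other neighbours in this order were separate in the 3 libraries. With lurbinectedin the order was the same at the top, with CDK4 at 149 ± 12.4 and CCND1 at 149 ± 3.13 overlapping. CDK2 (60.8 ± 2.64) then stood above CCNE1 (41.1 ± 1.32), and CDK6, at 0.245 ± 0.0407, had dropped below CDKN2C (5.09 ± 0.461). The plot of levels by library shows each of the 10 genes on its own scale.

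**Figure D1:**
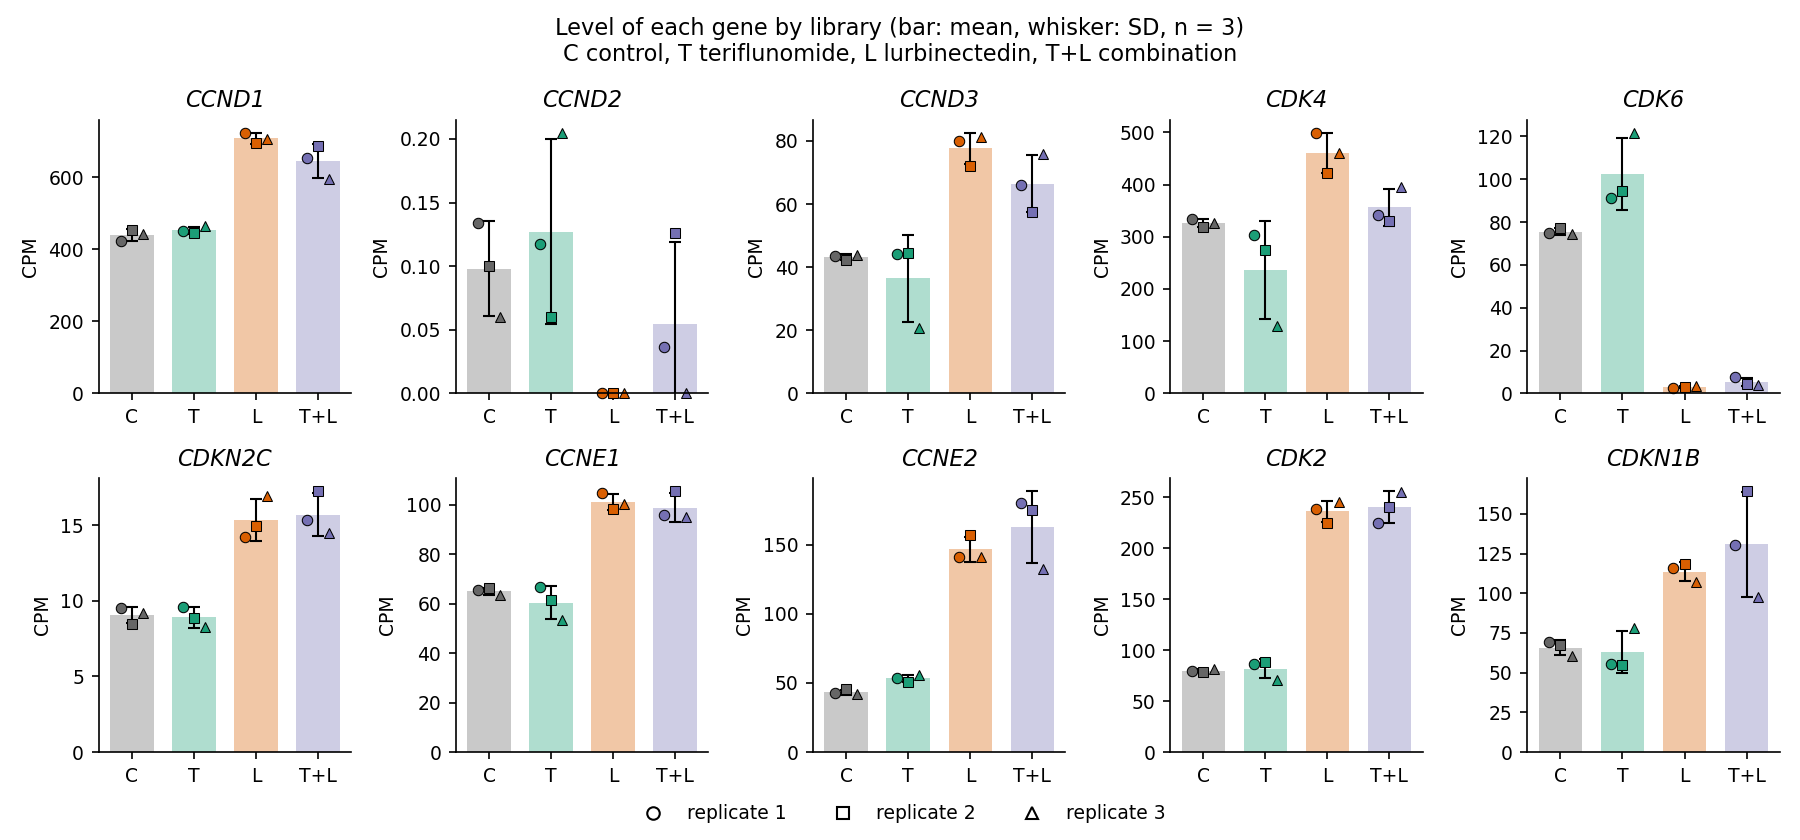
Level of each gene in CPM (y axis, each panel with its own scale from 0) in control (C), teriflunomide (T), lurbinectedin (L) and combination (T+L) libraries, with bars for the mean, whiskers for the SD (n = 3) and 1 symbol per library. In the 6 libraries with lurbinectedin CDK6 lies between 2.62 and 7.57 CPM, below all other libraries, while CCND1, CCND3, CCNE1, CCNE2, CDK2, CDKN1B and CDKN2C lie above all libraries without it.

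The first comparison set the lurbinectedin libraries against the control libraries. Of the 9 tested genes, 7 rose and 1 fell at a Benjamini-Hochberg adjusted p under 0.05 in edgeR's quasi-likelihood test, which is what called means below. Of all genes tested, 71.6% were called in this comparison, 36.0% higher and 35.7% lower, so most tested genes moved with this drug and the count of 8 is to be read against that share. All 9 genes had groups that did not overlap, as did 83.2% of all genes. The median log2 fold change was 0.76 over the 9 genes and 0.05 over all genes. With library size as the only scaling the median of all genes was -0.18, and 39.2% of calls were higher in place of 50.2%. In bulk RNA, fewer cells with a transcript and less of it per cell cannot be told apart.

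Among the D-type cyclins, which couple growth signals to CDK4 and CDK6, CCND1 (ENSG00000110092.4, chr11:69641156-69654474, plus strand, hg38) was by far the most abundant. Its control libraries gave 422, 455 and 444 CPM and its lurbinectedin libraries 724, 695 and 706 CPM. Every lurbinectedin library was above every control library, and the rise was 1.61-fold (log2 0.69, SE 0.0843, adjusted p = 5.25e-06). CCND3 (ENSG00000112576.13, chr6:41934934-42050357, minus strand) had 43.7, 42.2 and 44.0 CPM in control and 79.9, 72.1 and 81.2 CPM with lurbinectedin. The groups were again apart, with a rise of 1.80-fold (log2 0.84, SE 0.217, adjusted p = 0.00315). With library size as the only scaling the CCND3 value was 0.61 and not called (adjusted p = 0.0836). CCND2 (ENSG00000118971.9, chr12:4269771-4305353) was near silent, with 4, 3 and 2 counts in the control libraries and 0 in each lurbinectedin library. A count of 0 allows up to 0.145, 0.117 and 0.109 CPM in these 3 libraries (3 counts, counting error only), so no fold is given.

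The kinases that D-type cyclins activate did not move alike. CDK6 (ENSG00000105810.10, chr7:92604921-92836573, minus strand) had 74.8, 77.2 and 74.3 CPM in control and 2.62, 2.81 and 3.56 CPM with lurbinectedin. It fell to 0.0400 times the control level (log2 -4.64, SE 0.232, adjusted p = 8.24e-10), the 303rd lowest log2 fold change of 16683 genes. CDK4 (ENSG00000135446.17, chr12:57747727-57756013, minus strand) had 333, 319 and 326 CPM in control and 499, 423 and 460 CPM with lurbinectedin. The CDK4 groups did not overlap, but the value of 0.50 (SE 0.222, 95% interval 0.02 to 0.98) was not called (adjusted p = 0.0575). Without teriflunomide replicate 3, which enters through the shared estimate of spread, the CDK4 value was 0.48 and called (adjusted p = 3.89e-05).

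The genes that act later in G1 rose. CDK2 (ENSG00000123374.11, chr12:55966781-55972789, plus strand), the kinase partner of the E-type cyclins, had 79.6, 78.7 and 81.4 CPM in control and 239, 225 and 245 CPM with lurbinectedin. This was a separation without overlap and a rise of 2.95-fold (log2 1.56, SE 0.101, adjusted p = 7.88e-09). CCNE2 (ENSG00000175305.18, chr8:94879770-94896678, minus strand) showed the highest log2 fold change of the 9 genes, from 42.5, 45.3 and 41.8 CPM in control to 141, 157 and 141 CPM with lurbinectedin. That is a rise of 3.39-fold (log2 1.76, SE 0.119, adjusted p = 1.33e-08). Its relative CCNE1 (ENSG00000105173.14, chr19:29811991-29824312, plus strand) had 65.5, 66.2 and 63.6 CPM in control and 105, 98.2 and 100.2 CPM with lurbinectedin. CCNE1 rose 1.55-fold (log2 0.63, SE 0.101, adjusted p = 6.16e-05). INTS8 and NDUFAF6 lie on the opposite strand over parts of CCNE2, with total counts of 32960 and 9878 against 33279 for CCNE2. The use of strand in counting is not given in the sources used here, so reads from shared exons cannot be told apart. Named genes on the opposite strand of other members had far fewer counts: LTO1 9253 against 190145 for CCND1, MARCHF9 3427 and TSPAN31 2704 against 117183 for CDK4, GPR19 2258 against 31053 for CDKN1B, and PMEL 564 against 52766 for CDK2.

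Both inhibitors rose as well. CDKN1B (ENSG00000111276.12, chr12:12685498-12722369, plus strand) had 69.5, 67.5 and 60.4 CPM in control and 116, 118 and 107 CPM with lurbinectedin. The groups were apart and the rise was 1.73-fold (log2 0.79, SE 0.174, adjusted p = 0.00106). CDKN2C (ENSG00000123080.12, chr1:50960745-50974634, plus strand), the least abundant of the tested genes in control, had 9.55, 8.46 and 9.17 CPM there and 14.2, 15.0 and 16.9 CPM with lurbinectedin. It rose 1.70-fold (log2 0.76, SE 0.126, adjusted p = 8.74e-05), also without overlap.

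**Figure D2:**
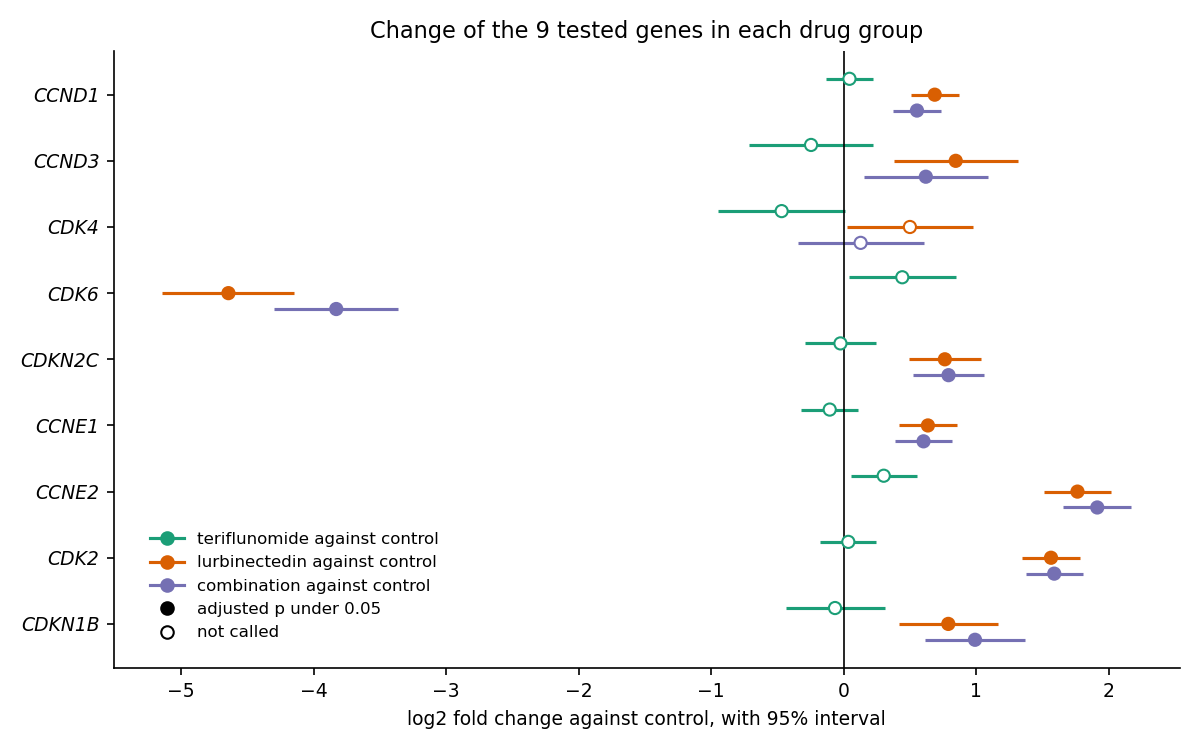
The log2 fold change of the 9 tested genes against control (x axis) with its 95% interval, for teriflunomide, lurbinectedin and the combination, with filled points where the adjusted p is under 0.05. CDK6 stands at -4.64 with lurbinectedin and -3.83 with the combination, and the other called values lie between 0.55 and 1.91.

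The teriflunomide libraries were set against the control libraries in the same way. None of the 9 genes was called in edgeR, against 6.01% of all genes, 3.88% higher and 2.13% lower. At an unadjusted p under 0.05 there were 2 members (CDK6 and CCNE2), and DESeq2 called 0. Over all genes, 4143 of 16683 had an unadjusted p under 0.05 and DESeq2 called 1907. Groups that did not overlap were found for 3 genes (CDK6, CCNE2 and CDK4), against 36.8% of all genes. The median log2 fold change was -0.03 over the 9 genes and 0.03 over all genes.

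CDK6 had 91.1, 94.4 and 122 CPM with teriflunomide, each above the 3 control libraries, and a log2 fold change of 0.44 (SE 0.188, adjusted p = 0.167). CCNE2 had 53.7, 50.6 and 55.4 CPM, also above all control libraries, with a value of 0.30 (SE 0.116, adjusted p = 0.134). CDK4 had 303, 275 and 128 CPM, each below the control libraries, with a value of -0.47 (SE 0.222, adjusted p = 0.208). Without replicate 3 the CDK4 value was -0.18 (adjusted p = 0.261). The same library was low for CCND3, at 20.7 CPM against 44.1 and 44.5 CPM in replicates 1 and 2. On the log2 scale replicate 3 differed from the mean of the other 2 by -1.17 for CDK4, -1.10 for CCND3, 0.50 for CDKN1B and 0.39 for CDK6. Without replicate 3 the CCND3 value was 0.03 instead of -0.25. CCND1, CDK2, CCNE1, CDKN1B and CDKN2C had values between -0.11 and 0.04, with groups that overlapped. CCND2 had 4, 2 and 6 counts.

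The combination was compared with control and with each drug alone, since the study concerns the joint use of teriflunomide and a chemotherapeutic drug. Against control, 7 of the 9 genes rose and CDK6 fell, while 68.4% of all genes were called, 34.1% higher and 34.4% lower. The median was 0.62 over the 9 genes and 0.04 over all genes, and 8 genes had groups that did not overlap, against 77.2% of all genes. The comparison shares its control libraries with the one of lurbinectedin alone.

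CCNE2 had 179.9, 175 and 133 CPM in the combination libraries and a value of 1.91 (SE 0.119, adjusted p = 8.14e-09). CDK2 had 224, 241 and 256 CPM and a value of 1.59 (SE 0.101, adjusted p = 8.69e-09). CDK6 had 7.57, 4.22 and 4.12 CPM and a value of -3.83 (SE 0.218, adjusted p = 3.43e-09). Each of these groups was clear of the control libraries. CDKN1B had 130, 164 and 97.7 CPM and a value of 0.99 (SE 0.175, adjusted p = 0.000186). CDKN2C (0.79), CCNE1 (0.60) and CCND1 (0.55) rose with adjusted p-values of at most 0.000111. CCND3 rose by 0.62 (SE 0.217, adjusted p = 0.0209), with 66.0, 57.6 and 75.7 CPM. This call was lost when any 1 control library (adjusted p = 0.0504 to 0.0600) or combination replicate 3 (0.0808) was left out. It was also lost with library size as the only scaling (0.47, edgeR adjusted p = 0.182). CDK4, with 342, 330 and 396 CPM, overlapped the control libraries and had a value of 0.13 (95% interval -0.35 to 0.60, adjusted p = 0.626). CCND2 had 1, 3 and 0 counts.

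Against teriflunomide alone the combination had all 9 genes called, 8 higher and CDK6 lower, with 70.9% of all genes called, 35.2% higher and 35.8% lower. All 9 had groups that did not overlap, against 70.7% of all genes, and the medians were 0.82 and 0.04. CDK6 fell by 4.27 on the log2 scale (SE 0.221, adjusted p = 1.55e-09). CCNE2 rose by 1.61 and CDK2 by 1.55, CDKN1B by 1.06, CCND3 by 0.87, CDKN2C by 0.82, CCNE1 by 0.71 and CCND1 by 0.51. CDK4 rose by 0.60 (SE 0.222, adjusted p = 0.0272). Without teriflunomide replicate 3, the rise was 0.29 for CDK4 and 0.58 for CCND3, both still called. The CDK4 call was lost without combination replicate 1 (adjusted p = 0.0515) or replicate 3 (0.0902), with only the 2 groups compared in the fit (0.0813), and when scaled by library size alone (0.167).

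Against lurbinectedin alone the combination had 0 of 9 genes called in edgeR, as 0% of all genes were called. At an unadjusted p under 0.05 there was 1 member, CDK6, and DESeq2 also called 1, which was CDK6. Over all genes, 2599 had an unadjusted p under 0.05 and DESeq2 called 584. CDK6, CDK4 and CCND1 had groups that did not overlap, against 23.7% of all genes, and the medians were 0.02 and 0.03. CDK6 was at 7.57, 4.22 and 4.12 CPM in the combination and at 2.62, 2.81 and 3.56 CPM with lurbinectedin alone, a value of 0.81 (SE 0.229, 95% interval 0.32 to 1.31, adjusted p = 0.159). The CDK6 value was called in DESeq2 (0.83, adjusted p = 0.0204) and without teriflunomide replicate 3 (0.82, edgeR adjusted p = 0.0184). Without combination replicate 1, the library at 7.57 CPM, it was 0.47 and not called (adjusted p = 0.609). CDK4 was lower in each combination library, with a value of -0.37 (95% interval -0.85 to 0.10, adjusted p = 0.434), which was called without teriflunomide replicate 3 (-0.37, adjusted p = 0.0112). CCND1 had a value of -0.13 (95% interval -0.31 to 0.05, adjusted p = 0.460). The other 6 genes overlapped between the groups and had values from -0.23 (CCND3) to 0.20 (CDKN1B).

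The interaction asks whether teriflunomide acted differently on a gene when lurbinectedin was also given. None of the 9 genes was called in edgeR, none had an unadjusted p under 0.05, and DESeq2 called 0. In edgeR 0.258% of all genes were called, 0.0360% higher and 0.222% lower. Over all genes, 1726 of 16683 had an unadjusted p under 0.05 and DESeq2 called 258. Values of the 9 genes ran from -0.18 for CCND1 to 0.37 for CDK6, with edgeR adjusted p-values from 0.658 to 0.993. The intervals were wide for CDK6 (-0.26 to 1.01), CDK4 (-0.58 to 0.77) and CCND3 (-0.63 to 0.68), so interactions within these ranges were not excluded with 3 libraries a group.

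The balance within pairs of alternative partners was followed as shares of counts per kb of exon, described here without a test. CDK6 made up 5.53% ± 0.211 (SD, n = 3) of CDK4 plus CDK6 in control, 0.165% ± 0.0316 with lurbinectedin and 0.380% ± 0.155 with the combination. With teriflunomide the CDK6 share was 7.05% at the lowest and 19.3% at the highest, the latter in replicate 3, so all 3 teriflunomide libraries were above the controls. CCNE2 made up 27.1% ± 0.559 of the E-type cyclins in control, 33.1% ± 3.19 under teriflunomide, 44.8% ± 2.19 under lurbinectedin and 47.8% ± 3.69 under both drugs. CCNE2 thus took a larger share in every library with lurbinectedin than in any without it. Among the D-type cyclins CCND1 was at 92.5% in control, 93.8% under teriflunomide, 91.7% under lurbinectedin and 92.1% under both drugs. The CCND3 share was 7.11% to 7.88% in the control libraries and 7.89% to 8.68% under lurbinectedin. It was 7.47%, 7.63% and 3.55% in the teriflunomide libraries, with replicate 3 the lowest of all 12, and 7.70%, 6.46% and 9.52% in the combination libraries, with replicate 3 the highest. CCND2 stayed at or below 0.0253% in every library.

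**Figure D3:**
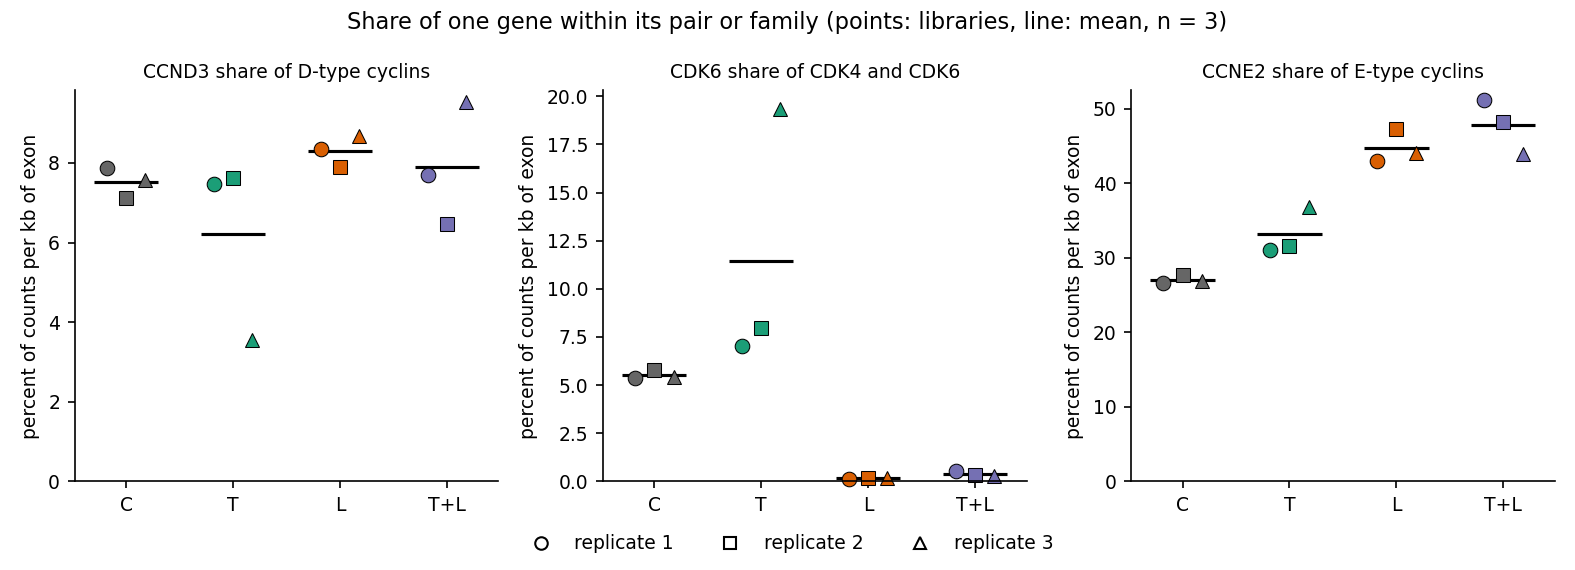
Share of CCND3 among the D-type cyclins, of CDK6 within CDK4 plus CDK6, and of CCNE2 within the E-type cyclins (y axes, percent of counts per kb of exon, from 0) in control (C), teriflunomide (T), lurbinectedin (L) and combination (T+L) libraries, with lines for the mean of 3 libraries. The CDK6 share is close to 0 in the 6 libraries with lurbinectedin and reaches 19.3% in teriflunomide replicate 3, while the CCNE2 share is highest in the libraries with lurbinectedin.

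The genes were also set against all nuclear genes of like genomic span, the distance from a gene's first to its last annotated base. For this, nuclear genes were divided by span into 5 classes of equal size. From the shortest to the longest class, medians with lurbinectedin were 0.69, 0.62, 0.28, -0.36 and -1.86 on the log2 scale. CDK6 spans 232 kb and is in the longest class, where the middle 50% of genes had values from -3.12 to -0.91. Its value of -4.64 was below this range, with 7.93% of the class lower still. CCND3 spans 115 kb and is in the same class, yet 96.1% of that class had lower values. CDKN1B spans 36.9 kb and 89.2% of its class was lower. Its RefSeq start, at 5.002 kb from the gene's end, lies far inside that span, as does the near start of CCND3 shown above. The part of start position in these values was not tested. CCNE2 (16.9 kb) was above 93.8% of its class and CDK2 (6.01 kb) above 83.6%. CDKN2C, CCND1, CCNE1 and CDK4, of 8.29 to 13.9 kb, were near the middle of theirs, with 44.6% to 56.8% of genes lower. Across the 9 genes, Spearman's rho of span and log2 fold change was -0.03 (0.38 without CDK6). The genes share libraries and scaling, and the rho is given as a description only.

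**Figure D4:**
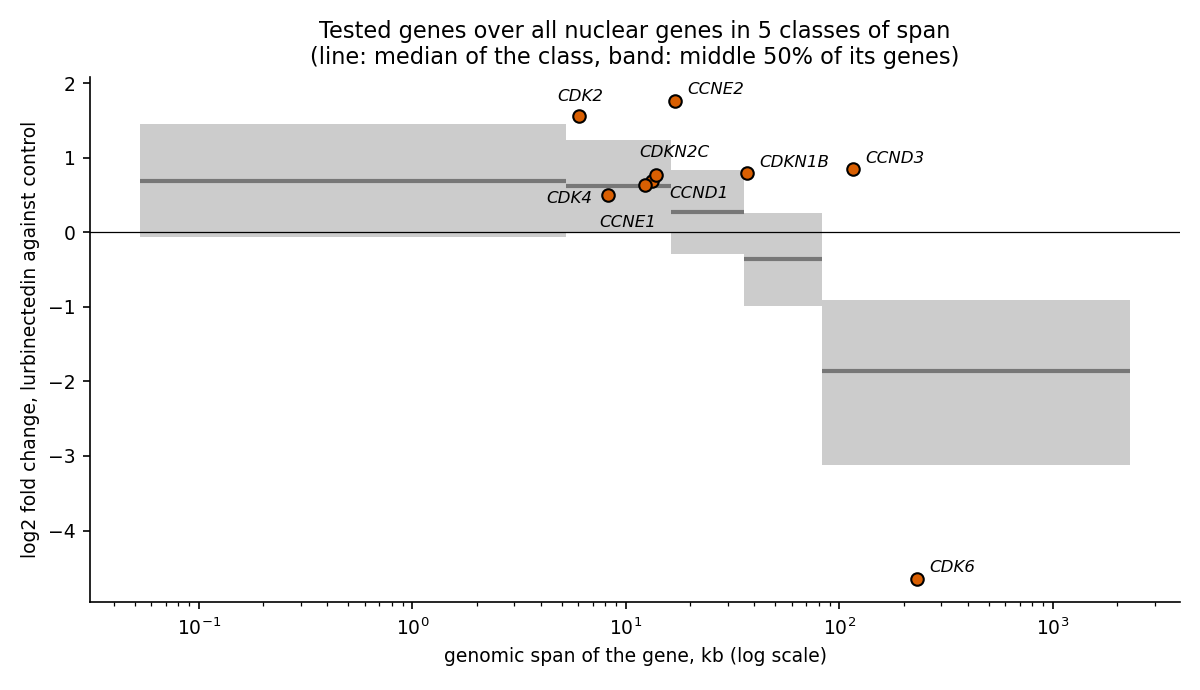
Genomic span in kb (x axis, log scale) and log2 fold change with lurbinectedin against control (y axis) of the 9 tested genes, over all nuclear genes in 5 classes of span, with a line for the median and a band for the middle 50% of each class. CDK6 (232 kb, -4.64) lies under the band of the longest class, whereas CCND3 (115 kb, 0.84) lies above it.

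Over the 12 libraries, the log expression of CDK6 was negatively correlated with that of each other tested member, with Pearson's r from -0.984 to -0.701. Among the others r was highest for CDK2 with CDKN2C and for CCNE1 with CDK2 (0.975 each), and lowest for CDK4 with CDKN1B (0.383). These 12 values fall into libraries with and without lurbinectedin, and the r is a description of that division. The genes with patterns most like CDK6 were HIPK2, STAU2 and AP3B1 (r = 0.999 each), with spans of 216, 327 and 292 kb and log2 fold changes of -4.17, -4.79 and -4.21 with lurbinectedin. They are 3 of 3010 genes with r over 0.95, so the likeness is common.

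Other genes of G1 control were read from 5 lists holding 41 genes, all of which were tested, with the same call rule and background shares. These lists too were chosen with earlier results of these data known. Unlike the members, the 41 genes were not set against genes of like span. The part of span in their values was not tested. In lurbinectedin against control, 71.6% of all genes were called, 36.0% higher and 35.7% lower. Of the other CDK inhibitors, 4 of 5 rose there and none fell in edgeR. The remaining gene, CDKN1C, had an unadjusted p above 0.05, and DESeq2 also called 4. CDKN1A (p21, a target of p53) rose from 22.8 ± 1.61 to 619.6 ± 42.2 CPM (log2 4.76, adjusted p = 3.96e-10). CDKN2B (p15) rose from 1.18 ± 0.0697 to 37.1 ± 1.11 CPM (log2 4.97, adjusted p = 1.57e-09). CDKN2D (p19) rose by 1.95 and CDKN2A (p16 and ARF) by 1.04. The median of the list was 1.95.

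Pocket proteins and E2F partners mostly went the other way: 2 of 10 rose, 6 fell and the median was -0.61. Over all genes 36.0% rose, 35.7% fell and the median was 0.05. RB1, the substrate of the G1 kinases, fell from 63.6 ± 2.18 to 13.7 ± 2.12 CPM (log2 -2.21, adjusted p = 1.02e-06). TFDP2, a dimer partner of E2F factors, fell by 3.95, E2F5 by 2.05 and RBL1 (p107) by 2.02, whereas E2F1 rose by 1.05. Of 5 genes of CDK activation 2 rose and 2 fell, with a median of -0.00. MNAT1 and CCNH, subunits of the CDK-activating kinase, fell by 3.24 and 1.06. CDC37, a kinase chaperone, rose by 0.95 and CDC25A, a phosphatase that activates CDK2, by 0.84.

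Of 9 genes for turnover of G1 cyclins and inhibitors, 4 rose and 3 fell, with a median of 0.21. AMBRA1, which directs the breakdown of D-type cyclins, fell by 3.34, while FBXW7, which directs that of cyclin E, rose by 1.90. CUL1, a scaffold of the ubiquitin ligase that uses FBXW7, fell by 1.52 and USP28, a deubiquitinase, by 1.26. Of 12 S phase E2F targets, 7 rose and 3 fell, with a median of 0.45. RRM2, CDT1, PCNA and TK1 rose by 1.46, 1.40, 1.38 and 1.26. CCNA2, the cyclin that follows cyclin E, had a value of 0.03 (adjusted p = 0.862). In the combination against control the same lists had 4 higher and 0 lower, 1 and 6, 2 and 2, 3 and 4, and 6 and 3 genes called, in the order given. Over all genes 68.4% were called in that comparison. The CDK inhibitor not called there was again 1 of 5, and DESeq2 called 4.

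**Figure D5:**
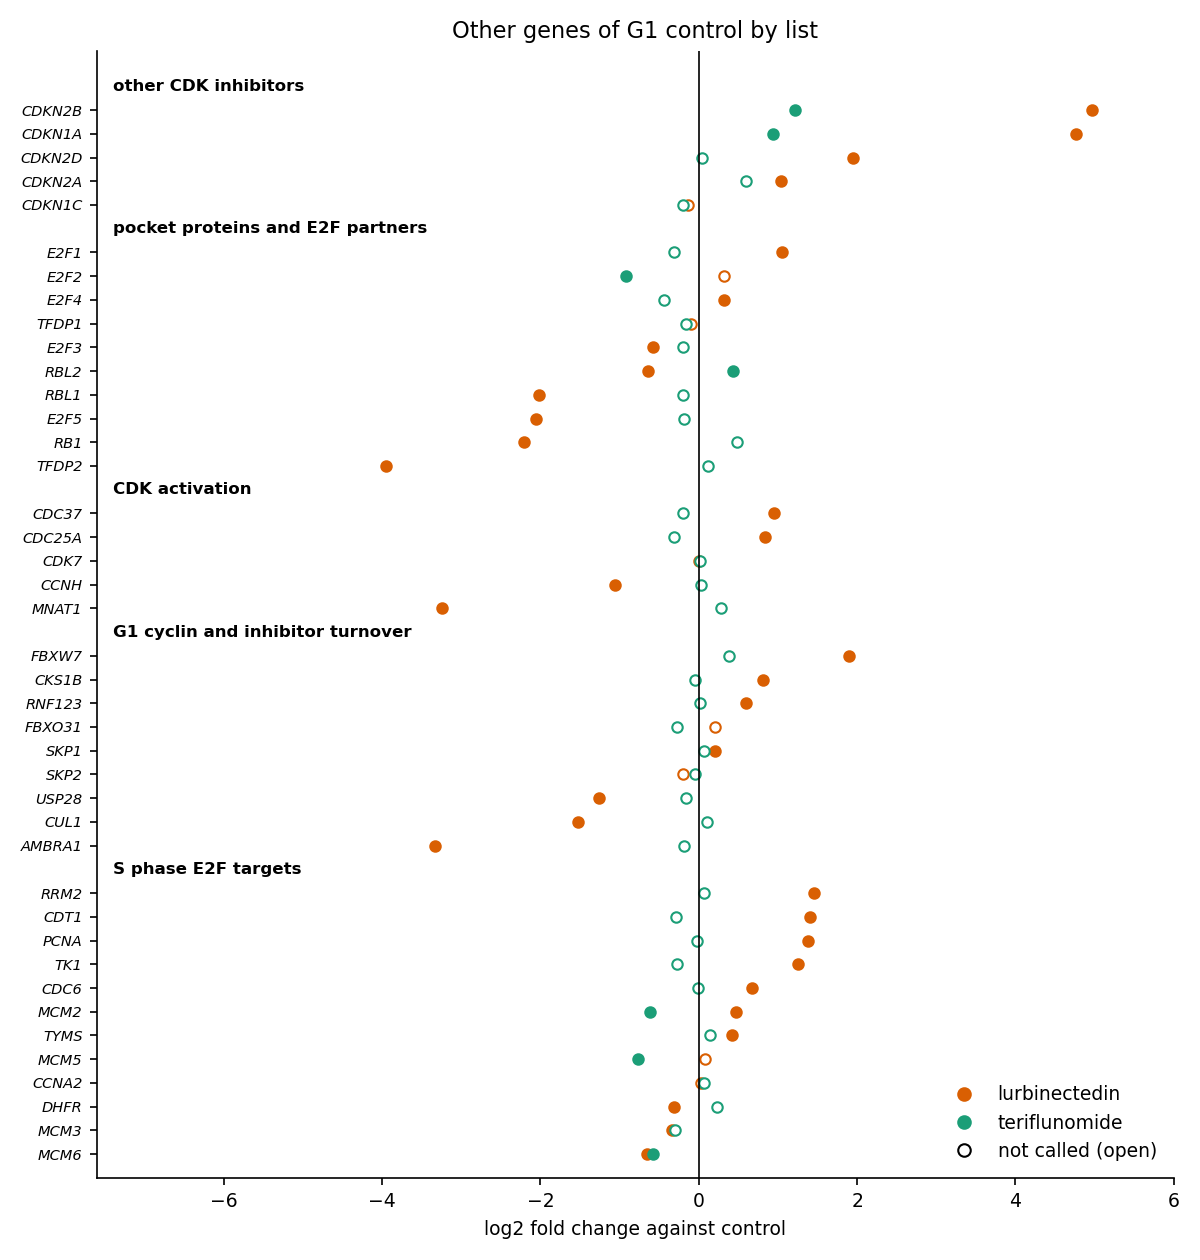
The log2 fold change against control (x axis) of 41 other genes of G1 control in 5 lists, for lurbinectedin and teriflunomide, with filled points where the adjusted p is under 0.05. CDKN2B and CDKN1A lie farthest to the right with lurbinectedin (4.97 and 4.76) and TFDP2 farthest to the left (-3.95).

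With teriflunomide the calls in these lists were few, and 6.01% of all genes were called. Of the other CDK inhibitors 2 of 5 rose: CDKN2B by 1.21 (adjusted p = 0.0239) and CDKN1A by 0.94 (adjusted p = 0.0141), with CDKN1A at 43.7 ± 14.7 CPM. Of the pocket proteins and E2F partners, E2F2 fell by 0.92 (adjusted p = 0.0249) and RBL2 (p130) rose by 0.43 (adjusted p = 0.0499). Of the S phase targets 3 of 12 fell, with MCM5 at -0.77 (adjusted p = 0.0234) and MCM2 at -0.61 (adjusted p = 0.0417), both subunits of the replicative helicase. RB1 (0.49), CDKN2A (0.59), E2F1 (-0.31) and CCNA2 (0.07) were not called. In the CDK activation and turnover lists edgeR and DESeq2 called 0 genes, and 1 gene in each had an unadjusted p under 0.05. Over all genes, 4143 of 16683 had such an unadjusted p and DESeq2 called 1907. All of the 6 calls named here were lost without control replicate 1, without control replicate 2 and without control replicate 3, with adjusted p-values of 0.0593 to 0.180. Without teriflunomide replicate 3 the MCM2 value was -0.40. The list medians were 0.59, -0.19, 0.01, -0.05 and -0.15 in the order of the lists above.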

How the data were processed

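RNA of 12 SBC3 libraries was sequenced after mRNA library preparation. The deposited values are raw read counts per gene, 1 table per library, made by the authors with featureCounts of Subread on hg38, after fastp 0.23.2 and STAR 2.7.9, per the submitters' processing notes and the file headers. The annotation release, strand use and treatment of multi-mapping reads are not given in the sources used here. Of 60649 gene identifiers, 60507 (99.8%) were matched to a symbol.

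Counts were tested with edgeR 4.0.16 (R 4.3.3, limma 3.58.1): filterByExpr on the 4 groups, TMM scaling, and 1 robust quasi-likelihood model with 1 mean per group over all 12 libraries. The common dispersion was equal to a biological variation of 14.5%. There were 6 contrasts, each with Benjamini-Hochberg adjustment over 16683 genes, and a gene was called at an adjusted p under 0.05. Standard errors came from the F statistic. CPM used TMM-scaled library sizes, and levels between genes were divided by exon length in kb. Sequences were read from RefSeq windows, and the scripts were tested on simulated data. The members and the gene lists were chosen with earlier results of these data known. All 10 members were named. From each list the called genes with the largest absolute log2 fold change were named, at most 4 with lurbinectedin and 2 with teriflunomide, plus CDKN1A, RB1, CDKN2A, E2F1 and CCNA2. Alternatives were DESeq2 size factors, library size only, no expression filter, no mitochondrial genes, a replicate block, only the groups compared, DESeq2 1.42.0, each library left out, and, chosen after seeing the data, teriflunomide replicate 3 and combination replicate 2 left out together.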

Additional observations from a re-analysis of the deposited data

How the results depend on the processing

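Under every alternative run the number of members called was 7 to 10 in lurbinectedin against control, where 11012 to 13492 of all genes were called. It was 7 or 8 in the combination against control (10454 to 12786 of all genes). In the combination against teriflunomide it was 8 or 9 (9996 to 12915 of all genes). The 10 came without the expression filter, where CCND2 and CDK4 were also called. CDK4 with lurbinectedin was called without teriflunomide replicate 1 (0.49, adjusted p = 0.0382) and with only the groups compared (0.48, adjusted p = 4.43e-10) as well. No called member value changed sign. Without the filter 1 member (CDK4) was called with teriflunomide and 1 (CDK6) in the combination against lurbinectedin, where DESeq2 also called 1 and leaving out libraries gave 0 to 2 (2 without teriflunomide replicate 3). Genes called with teriflunomide against control numbered 265 with library size only, 1800 with no filter, 283 with only the groups compared, 1907 with DESeq2 and 216 to 2757 with libraries left out, in place of 1002. In the combination against lurbinectedin they were 612 with no filter, 94 with only the groups compared, 584 with DESeq2 and 0 to 3640 with libraries left out (2067 without teriflunomide replicate 3, 259 without combination replicate 2), in place of 0. For the interaction they were 6 with library size only, 195 with no filter, 258 with DESeq2 and 2 to 1839 with libraries left out, in place of 43. The upper ends came from leaving out teriflunomide replicate 3 and combination replicate 2 together. The cause was not tested. No pairing by replicate number was seen: deviations of same-numbered libraries correlated at -0.402 to 0.144, and 2 of 12 libraries matched their own number best. With 3 libraries a group, and outlying libraries of different numbers, this check cannot exclude a pairing. With a replicate block 415 genes were called with teriflunomide and 8 for the interaction, and the numbers of members called were as before. Values that were not called changed sign as follows. With library size only, teriflunomide gave CCND1 -0.039, CDK2 -0.033 and CCNA2 -0.027, lurbinectedin CCNA2 -0.21, the combination against control CDK4 -0.030, the combination against lurbinectedin CCNE1 0.028, and the interaction CDK2 0.13. The CDK2 interaction was 0.012 with DESeq2 and 0.012 with its size factors in edgeR, and 0.028 with no filter, which gave CCNA2 -0.047 with lurbinectedin. With libraries left out, teriflunomide values ranged from -0.41 to 0.033 (CCND3), -0.018 to 0.12 (CDK2), -0.26 to 0.025 (CDKN1B), -0.083 to 0.025 (CDKN2C) and -0.059 to 0.15 (CCNA2), and CCNA2 with lurbinectedin from -0.013 to 0.053. In the combination against lurbinectedin they ranged from -0.080 to 0.0019 (CCNE1), -0.023 to 0.079 (CDK2) and -0.044 to 0.10 (CDKN2C), and for the interaction from -0.25 to 0.18 (CCND3), -0.056 to 0.15 (CCNE1), -0.098 to 0.055 (CDK2), -0.19 to 0.32 (CDK4) and -0.069 to 0.14 (CDKN2C). Counts not divided by exon length gave CDK6 18.8% of CDK4 plus CDK6 in control and 0.650% with lurbinectedin. With 3 libraries a group, small changes of CDK4 and CCND3 were limited by the spread of the teriflunomide libraries, and CCND2 by depth.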

Other observations

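The libraries with the highest mitochondrial share in their groups, teriflunomide replicate 3 and combination replicate 2, were set against the mean of the other 2 libraries of each group on the log2 scale. CDKN1B (0.50 in teriflunomide replicate 3 and 0.54 in combination replicate 2), CCNE2 (0.09 and 0.18) and CCND1 (0.05 and 0.14) were higher in both. CDK4 (-1.17 and -0.16) and CCND3 (-1.10 and -0.30) were lower in both. The other 4 genes differed in sign: CDK6 (0.39 and -0.40), CDK2 (-0.29 and 0.0076), CCNE1 (-0.26 and 0.15) and CDKN2C (-0.16 and 0.21). Over the 9 tested genes Pearson's r of these deviations was 0.482 and Spearman's rho 0.433, a description over genes of 2 libraries.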
